A study of Arabidopsis thaliana with 6 samples.

Results

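snRNA and snoRNA fragments are short pieces, read from small RNA libraries, of the structural RNAs that splice pre-mRNA and modify ribosomal RNA. A sequence was counted as a fragment if it matched, without mismatch, the sense strand of an Arabidopsis thaliana gene annotated as snRNA or snoRNA (TAIR10.1) and no miRNA, TAS, tRNA or rRNA gene. Of 18124 sequences in the deposited table, 117 met this rule, 21 from snRNA genes and 96 from snoRNA genes. They matched 18 of 82 annotated snRNA genes and 47 of 287 annotated snoRNA genes, and a sequence shared by gene copies was counted for each copy. Of the 117, 84 matched a single place in the genome and 93 had all their places inside snRNA or snoRNA genes.

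The study compared small RNAs of leaves between wild-type plants (WT, 3 libraries) and an rdr1 mutant (3 libraries), both untreated and grown together in long days at constant temperature. RDR1 is an RNA-dependent RNA polymerase, which makes double-stranded RNA from a single strand for Dicer-like enzymes to cut into small interfering RNAs, and is known from antiviral defence. The sources used here do not give the ecotype, the mutant allele or the age of the plants. Nothing states that replicates came from separate plants, so a p-value measures the spread between these libraries, which may be technical. No listed sequence matched the RDR1 gene, so the genotype could not be checked from the table.

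The U snRNAs U1, U2, U4, U5 and U6 are the RNA cores of the spliceosome: U1 pairs with the 5′ splice site, U2 with the branch site, and U6, made by RNA polymerase III, forms the catalytic core. Box C/D snoRNAs guide 2′-O-methylation of rRNA. They carry a C box (core TGATGA) near the 5′ end and a D box (CTGA) near the 3′ end, and the stretch just before a D box pairs with the rRNA site. Box H/ACA snoRNAs guide pseudouridylation and end in an ACA motif, and U3, a box C/D RNA, takes part in the cleavage of pre-rRNA. In plants many snoRNA genes lie in clusters that are transcribed together.

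One snoRNA, snoR121 (AT3G03175, TAIR10.1 chr3:5387184-5387268, plus strand, inside and antisense to the protein-coding gene AT3G15920), gave most of the signal. Its gene sequence is shown first because its 3′ part, in capitals, is the most abundant fragment. AtsnoR13-2 (AT3G00985, chr3:104978-105057, minus strand) is shown because fragments of different length came from its ends, both in capitals.
snoR121 gene: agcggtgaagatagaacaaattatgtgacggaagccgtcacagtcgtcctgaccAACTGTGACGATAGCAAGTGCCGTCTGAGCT
AtsnoR13-2 gene: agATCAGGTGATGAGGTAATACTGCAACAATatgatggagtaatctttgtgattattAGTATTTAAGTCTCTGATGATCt

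The next set shows the leading fragment of abundant snoRNAs, with a C-box core (TGATGA) or a D box (CTGA) in capitals. The first 3 are 5′ fragments that hold the C box and the last 4 are from the 3′ part and end just after the D box. Their places are chr2:2184625-2184645 (minus), chr5:1867813-1867831 (minus), chr1:10300489-10300509 (plus), chr1:10300534-10300564 (plus), chr5:23683180-23683206 (minus), chr1:17483907-17483937 (minus) and chr4:13075604-13075633 (plus).
AT2G05765, 5′: accgaTGATGAttattgctaa
snoR133, 5′: gagaaTGATGAaccaatta
AtsnoR4a, 5′: ggataTGATGAaatggcaata
AtsnoR4a, 3′: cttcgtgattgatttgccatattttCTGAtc
AtsnoR19-2, 3′ part: tattatgaacatctaagggaCTGAgtt
AtsnoR65, 3′: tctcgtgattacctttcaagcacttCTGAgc
U60.2F, 3′: atgggtgatgcaatctccaagtttCTGAtg

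The leading snRNA fragments follow, from U1.7 (chr3:1657893-1657920, plus) and from 3 variants of U2, U2.4 (chr3:21041821-21041846, minus), U2.2 (chr3:21346910-21346936, plus) and U2.5 (chr5:2975181-2975207, plus). The U2 fragments are near-identical copies of the same stretch, and no part is in capitals.
U1.7: gcgggggtttgcgttcgcgcagccccta
U2.4: ctactgcaagggctggctcaacccgc
U2.2: ctactgcacgggcctggctcaacccgc
U2.5: ctattgcgagggcttggctcaacccgc

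Values are the normalised read counts of the deposited table, per distinct sequence and library, and are given in the order WT replicates 1, 2 and 3 and then rdr1 replicates 1, 2 and 3. A sequence is listed only if it reached 20.07 in a library. A read was worth 0.804 to 1.71 and the libraries totalled 4668411 to 9955668 reads, of which 4406 to 35259 were snRNA or snoRNA fragments. Listed sequences made up 23.8 to 30.9% of the reads of a library. They differed in length between libraries: the share of the listed value at 28 to 34 nt was 35.3, 26.2 and 9.94% in WT and 4.87, 15.7 and 17.7% in rdr1. Chloroplast sequences, a mark of green tissue, were 14.7 to 19.5% of the listed value in the 6 libraries. Of the pollen miRNAs miR845a, miR845b, miR5014 and miR5021, only the MIR5014 hairpins had listed sequences, 3 in all, and each had a higher mean in rdr1. They summed to 21.8, 32.9 and 47.4 in WT and 43.9, 109.7 and 53.3 in rdr1, and their part in the results was not tested.

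Together the fragments were more abundant on average in WT than in rdr1, but the groups overlapped. The summed value was 29741, 31379.8 and 12370 in WT and 5527, 9274 and 16793 in rdr1. WT replicate 3 lay below rdr1 replicate 3, and rdr1 replicate 1 was the lowest. The mean was 24497 ± 10534 (SD, n = 3) in WT and 10531 ± 5737 (SD, n = 3) in rdr1, and the difference of mean log2 sums was -1.25 (exact two-sided permutation test, p = 0.2, where 3 libraries against 3 cannot go below 0.1). In bulk leaf RNA, fewer cells of a type and less fragment RNA per cell cannot be told apart.

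snoRNA fragments carried nearly all of this sum. They summed to 28289, 30434 and 10966 in WT and 5102, 8569.9 and 15412 in rdr1 (exact permutation p = 0.2). snRNA fragments summed to 1452, 946 and 1404 in WT and 425, 704 and 1381 in rdr1, so that only rdr1 replicates 1 and 2 lay below all WT libraries (log2 difference -0.74, exact permutation p = 0.2). The share of 28 to 34 nt in the listed value was highest in the same pair of WT libraries that had the highest sums. It was lowest in the rdr1 library with the lowest sum, and its part in the difference was not tested.

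**Figure D1:**
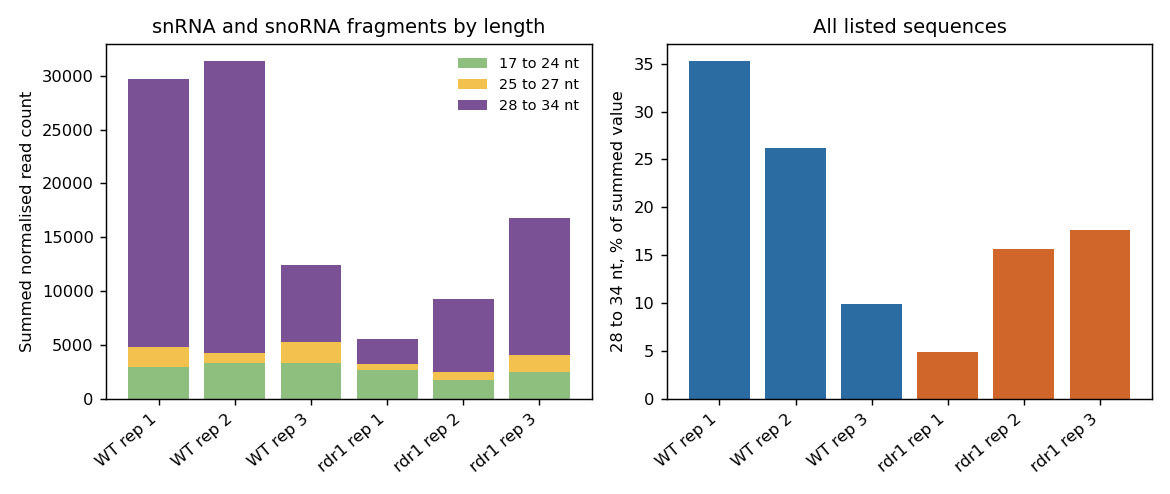
Left, summed normalised read count (linear axis) of the 117 fragments in each library, stacked by length class; right, share of all listed value in sequences of 28 to 34 nt, in percent. WT replicates 1 and 2 have the highest sums (29741 and 31379.8) and the highest shares (35.3 and 26.2%), and rdr1 replicate 1 the lowest of both (5527 and 4.87%).

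Split by length, the sum of short fragments separated the groups and that of long ones did not. The 38 fragments of 17 to 24 nt summed to 2947, 3353 and 3291 in WT and 2678, 1712 and 2447 in rdr1, without overlap (log2 difference -0.51, exact permutation p = 0.1). Among them, the 21-nt fragment of AT2G05765 had 1763, 1213 and 1060 in WT and 812, 699 and 880 in rdr1. Without it the WT and rdr1 sums would overlap, so their separation rests on that sequence. Those of 28 to 34 nt, 61 sequences, summed to 24961, 27109.7 and 7127 in WT and 2341, 6837 and 12723 in rdr1, with overlap (log2 difference -1.52, exact permutation p = 0.2). As a share of their own length class, the short fragments were 0.345, 0.218 and 0.193% of all listed 17 to 24 nt value in WT and 0.126, 0.112 and 0.188% in rdr1, without overlap (exact permutation p = 0.1, the smallest possible). Long fragments were 3.52, 4.18 and 3.32% of all 28 to 34 nt value in WT and 2.01, 2.05 and 3.79% in rdr1, where rdr1 replicate 3 lay inside the WT range (exact permutation p = 0.3).

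No single fragment passed the test across the table: limma called 0 of 117 at an adjusted p under 0.05, against 0.216% of the 18043 sequences tested. edgeR on the recovered reads called 0 as well (0.371% of all sequences). At an unadjusted p under 0.05, 20 were lower and 0 higher in rdr1, where 1.77% of all sequences were lower and 0.682% higher. The log2 fold change was below 0 for 98 of 117 fragments, with a median of -1.06, while 34.2% of all sequences were below 0 and their median was 0.47. WT and rdr1 libraries did not overlap for 13 fragments, all lower in rdr1, against 2.31% of all sequences lower and 2.98% higher. Some of the 13, such as those of U6 and AT2G17295, reached the value needed for listing only in WT. They were thus listed through the group where they were high, and the part of this entry rule in the count was not tested. Without each library in turn, 92 to 111 of 117 were below 0.

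The length classes can be set beside other listed sequences of the same length. Of the fragments of 17 to 24 nt, 19 of 38 had a log2 fold change below 0 (median 0.05), whereas 12.1% of the other sequences of that length did (median 0.68). All 18 fragments of 25 to 27 nt (median -0.81) and all 61 of 28 to 34 nt (median -1.32) were below 0, beside 77.4% (median -0.42) and 97.6% (median -0.88) of others. These are counts over sequences that overlap each other, and no test was made of them.

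**Figure D2:**
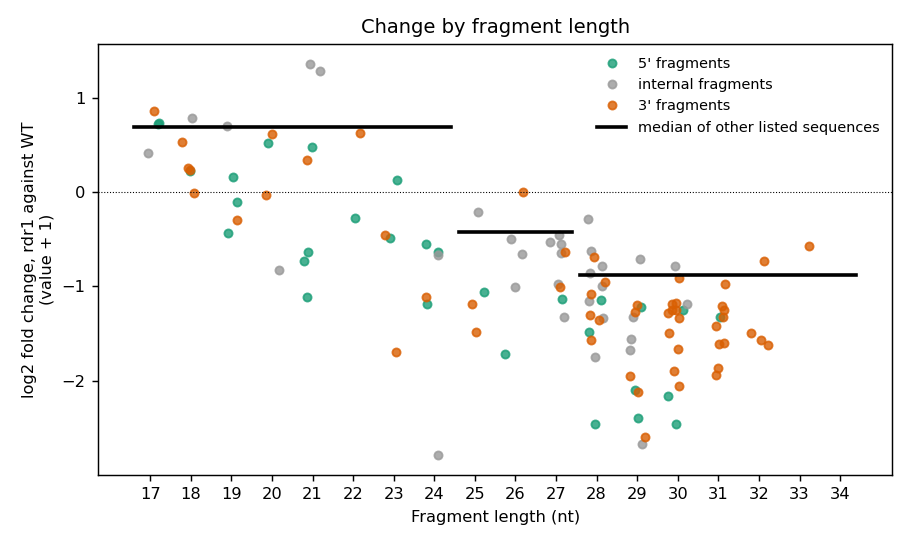
log2 fold change of rdr1 against WT (on value + 1) for each of the 117 fragments against its length in nt, with a small horizontal jitter; colours mark fragments at the 5′ end, at the 3′ end or internal, and black bars the median of other listed sequences in the 3 length classes. All fragments of 25 nt or more lie below 0, and those of 17 to 24 nt lie on both sides of 0.

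The spliceosomal RNAs were represented unevenly. Fragments matched 6 of 13 U1 genes, 6 of 23 U2 genes and 6 of 14 U6 genes, and none of 11 U4, 14 U5 and 6 minor-spliceosome genes. Gene copies share sequences, and the 6 U6 genes share a single one, so the gene of origin is not known. In the test by gene, where values were divided between genomic places, 59 of the 65 genes with a fragment passed the filter of a mean of 5 (the 6 U6 genes did not). limma called 0 of 59 at an adjusted p under 0.05, against 0.0983% of all 1017 genes tested. edgeR (0.0983% of all genes) and DESeq2 (0.197%) on the recovered reads also called 0 of 59. At an unadjusted p under 0.05, 6 were lower and 0 higher (all genes: 2.65% lower, 0.295% higher).

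U1 gave 7 fragments of 28 to 30 nt, all from the 3′ part of the RNA and ending 0 to 12 nt before the annotated end, depending on the gene copy. Their sum was 582, 408 and 123 in WT and 82.8, 252 and 309 in rdr1. WT replicate 3 lay below 2 rdr1 libraries, and the sums did not differ beyond their spread (exact permutation p = 0.5). The 28-nt U1.7 sequence shown above alone had 202, 114 and 47.4 in WT and 41.4, 118 and 122 in rdr1.

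U2 was the most abundant snRNA, with 13 fragments of 23 to 28 nt. They summed to 855, 523 and 1253 in WT and 341, 449 and 1071 in rdr1 (exact permutation p = 0.4), and here WT replicate 3 was the highest library, unlike for U1. The fragment of U2.4 had 177, 107 and 346 in WT and 102, 94.3 and 239.9 in rdr1. In the 195-nt models of U2.5 and U2.10 these fragments end 0 to 2 nt from the 3′ end. The models of U2.2, U2.3, U2.4 and U2.7 run on to 831 to 883 nt, so the same stretch counts as internal there.

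Among the snRNA types with fragments, U6 had the lowest values. One 24-nt fragment was listed, with 14.5, 15.1 and 28.1 in WT and 1.25, 3.43 and 1.21 in rdr1, which is 10, 17 and 35 reads against 1, 2 and 1. The groups did not overlap (log2 fold change -2.79, SE 1.21, limma adjusted p = 0.753; exact permutation p = 0.1 for the value alone). The fragment reached the value needed for listing only in WT replicate 3 (28.1). It was thus listed through the group where it was high. The part of this entry rule in the lack of overlap and in the calls that follow was not tested. The fragment passed with DESeq2 on the recovered reads (log2 fold change -3.88, adjusted p = 0.0294; 0.787% of all sequences were called), as the only one of the fragments to do so. It also passed with limma array weights (-2.27, adjusted p = 0.016), while the adjusted p was at least 0.117 under the other alternatives. It matched 8 places, of which 6 are annotated U6 genes.

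The sense fragment covers bases 24 to 47 of U6-26 (chr3:4561135-4561158, plus). Just 2 sequences antisense to any snRNA or snoRNA gene were listed, both 21 nt long and both from U6, and they are given here beside it although the rule leaves them out. The first covers bases 22 to 42 (chr3:4561133-4561153, minus) and the second bases 73 to 93 (chr3:4561184-4561204, minus). In the lines below, capitals mark the 19 bases that pair between the sense fragment and the first antisense sequence, leaving 2 nt at the antisense 3′ end and 5 nt at the sense 3′ end.
U6 sense: CGATACAGAGAAGATTAGCatggc
U6 antisense, first: GCTAATCTTCTCTGTATCGtt
U6 antisense, second: aaatttggaccatttctcgat

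The first antisense sequence had 16.0, 36.5 and 14.5 in WT and 0, 1.71 and 0 in rdr1. The groups did not overlap, with 11, 41 and 18 reads in WT and 0, 1 and 0 in rdr1. Its log2 fold change was -3.94 (SE 1.33, limma adjusted p = 0.635). On the recovered reads it passed with DESeq2 (-5.86, adjusted p = 0.00375) and with edgeR under TMM scaling (-5.41, adjusted p = 0.0483), and with limma under quantile normalisation and array weights. The second antisense sequence had 8.73, 24.03 and 18.5 in WT and 1.25, 0 and 3.64 in rdr1 (log2 fold change -2.94, limma adjusted p = 0.753), also without overlap. Both antisense sequences reached the value needed for listing only in WT replicate 2 (36.5 and 24.03). The part of this entry rule in their differences and calls was not tested.

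**Figure D3:**
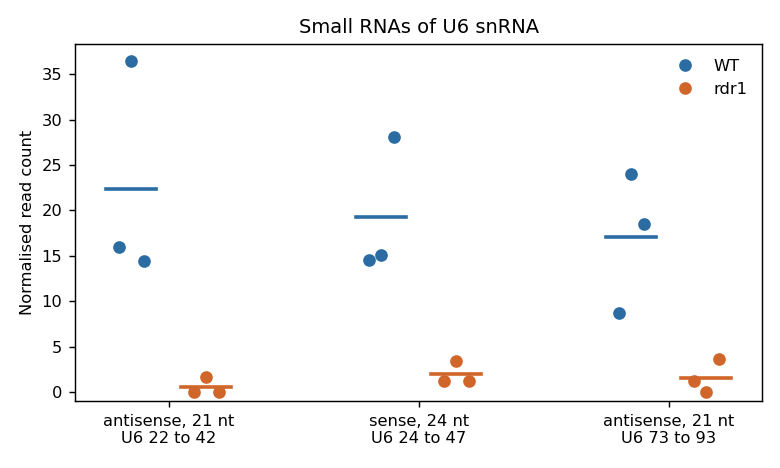
Normalised read count (linear axis) of the 3 small RNAs of U6, the sense fragment and 2 antisense sequences, in 3 WT and 3 rdr1 libraries; each point is a library and each bar a group mean. For all 3 the WT libraries (8.73 to 36.5) lie above the rdr1 libraries (0 to 3.64), and each sequence reached the listing threshold in a single WT library.

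U3, the snoRNA of pre-rRNA cleavage, had 5 fragments of 17 to 29 nt that all end at the same base. They summed to 64.0, 138 and 105 in WT and 189, 103 and 87.2 in rdr1, and the groups overlapped (exact permutation p = 0.6). The longest, of 29 nt, had 49.5, 46.3 and 14.5 in WT and 5.02, 22.3 and 15.8 in rdr1. The 21-nt fragment went the other way in most libraries, with 5.82, 26.7 and 39.4 in WT and 69.0, 41.1 and 36.4 in rdr1. Only 2 U3 genes, U3B and U3D, are annotated, and the fragments matched 6 to 8 genomic places, so the other places are outside annotated snoRNA genes.

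Among the other snoRNAs, 45 of 285 genes had a fragment, 91 sequences in all. The gene test called 0 of 45 in either direction, and 38 of the 45 had a log2 fold change below 0 (median -1.08; 44.1% of all 1017 genes were below 0, median 0.18). A C-box core in the first 15 nt together with CTGA in the last 10 nt was found in 24 of the 47 snoRNA genes with a fragment (U3 included), as in 38.7% of all 287. An ACA end, the mark of H/ACA snoRNAs, was found in 4 of the 47 (AtU65-1, AtU65-2, snoR86-2 and snoR144) and in 52 of all 287. The other 19 met neither definition; snoR121, for example, has CTGA in its last 10 nt but not TGATGA in its first 15 nt. Of the 47 genes, 36 had another snRNA or snoRNA gene on the same strand within 500 nt (76.6%, beside 74.6% of all 287).

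snoRNA fragments lay at the gene ends. A fragment was assigned to the 5′ or 3′ end if it started or stopped within 2 nt of the annotated end. By this rule 30 were 5′ fragments from 21 genes, 46 were 3′ fragments from 23 genes and 20 were internal. The 5′ fragments were short (median 24 nt) and the 3′ fragments long (median 29.5 nt). TGATGA occurred in 22 of the 30 5′ fragments (73.3%) and CTGA in the last 10 nt of 41 of the 46 3′ fragments (89.1%), beside 0.528% and 3.05% of the 18007 other listed sequences. These boxes lie near the ends of box C/D genes, so sorting by end largely fixes such shares. They describe the fragments, some of which are length forms of the same gene. snRNA gave 8 fragments at the 3′ end and none at the 5′ end. Of the 33 internal fragments of both kinds, 13 belong to gene models over 300 nt and 12 lie within 5 nt of an end.

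**Figure D4:**
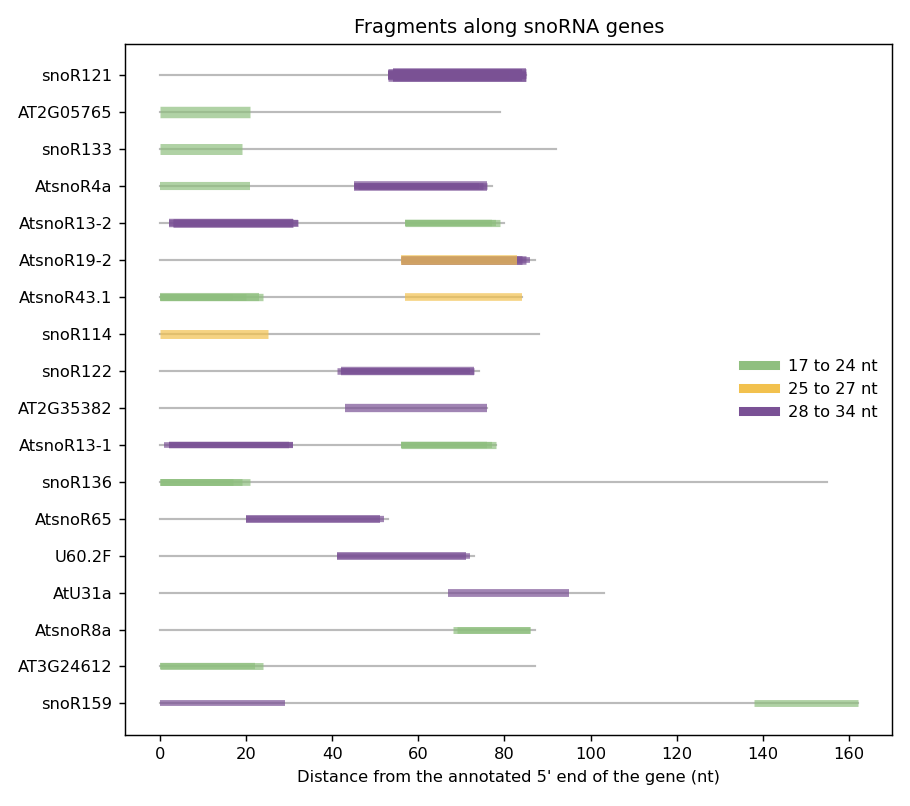
Fragments along the 18 named snoRNA genes, drawn from the annotated 5′ end in nt; grey lines are the genes, bar colour gives the fragment length class and bar thickness grows with the log10 of the mean value. Most bars sit at or near one or both gene ends, as in snoR121, where every fragment lies in the 3′ part, and in AtsnoR13-2, which has 28 to 34 nt bars at the 5′ end and 17 to 24 nt bars at the 3′ end.

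Summed by end, the 5′ fragments separated the groups and the 3′ fragments did not. The 5′ fragments summed to 3637, 3393 and 3123 in WT and 2140.0, 1590.3 and 2421 in rdr1, without overlap (log2 difference -0.74, exact permutation p = 0.1). The 3′ fragments, snRNA included, summed to 23396, 26197 and 7075 in WT and 2613, 6635 and 12068 in rdr1, with overlap (exact permutation p = 0.2). As a share of all fragments the 5′ end was 12.2, 10.8 and 25.2% in WT and 38.7, 17.1 and 14.4% in rdr1 (exact permutation p = 0.5). That share was highest in the libraries with the fewest long sequences, and its mean difference of 7.33 percentage points became -0.31 without rdr1 replicate 1. The share at the 3′ end was 78.7, 83.5 and 57.2% in WT and 47.3, 71.5 and 71.9% in rdr1 (exact permutation p = 0.5).

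snoR121 accounted for 66.3% of the value of all fragments, through 15 sequences of 27 to 32 nt. Its gene sum was 21673, 23578 and 5866 in WT and 1998, 5889.8 and 10690.4 in rdr1. WT replicate 3 lay below rdr1 replicates 2 and 3, so the groups overlapped (log2 fold change -1.52, SE 0.66, limma adjusted p = 0.637). The fold change was -0.86 without rdr1 replicate 1 and -2.17 without WT replicate 3. The 31-nt fragment in capitals above had 11715, 12231 and 3243 in WT and 1007, 3081 and 5308 in rdr1, and ranked from 32 to 256 among all listed sequences of a library. snoR121 made up 3.04, 3.63 and 2.70% of all 28 to 34 nt value in WT and 1.68, 1.75 and 3.15% in rdr1.

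The ends of the snoR121 fragments were similar in the 6 libraries. By value, 69.2% started at base 55 of the gene and 29.4% at base 54, and 77.9% stopped exactly at its last base. Across the libraries, the share that started at base 54 ranged from 26.2 to 32.9% and the share that reached the last base from 72.1 to 81.2%. Without snoR121, the other 102 fragments summed to 8068, 7802 and 6504 in WT and 3529, 3384 and 6103 in rdr1, and the groups no longer overlapped (log2 difference -0.83, exact permutation p = 0.1). That sum was chosen after the values had been seen.

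Many fragments of the 3′ part hold bases complementary to rRNA just before a CTGA, where the guide stretch of a box C/D snoRNA lies. Whether these bases act as guides was not tested. Of 53 fragments with CTGA after at least 10 nt, 27 from 8 genes (50.9%) had at least 10 Watson-Crick paired bases to the rRNA of chromosome 2 ending 0 or 1 nt before a CTGA, beside 10 of 659 other listed sequences (1.52%). Many of the 27 are length forms of the same stretch, above all that of snoR121. The percentages therefore count overlapping sequences and not separate genes, and no test was made of them. The rRNA searched was annotated 18S and 5.8S and the 4000 nt downstream of 5.8S, where 25S lies without annotation, so a partner there is not assigned to 25S. In the next lines capitals mark the complementary stretch. Its partner lies at chr2:7647-7657 for snoR121, chr2:5150-5162 (18S) for AtsnoR19-2, chr2:6529-6539 for AtsnoR65, chr2:9431-9441 for the AtsnoR13 pair and chr2:5856-5865 (5.8S) for AT2G35747. A match of letters describes the fragment and was not tested as a binding site.
snoR121: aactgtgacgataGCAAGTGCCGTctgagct
AtsnoR19-2: tattatGAACATCTAAGGGactgagtt
AtsnoR65: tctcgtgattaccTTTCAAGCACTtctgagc
AtsnoR13-1 and AtsnoR13-2: aGTATTTAAGTCtctgatgatc
AT2G35747: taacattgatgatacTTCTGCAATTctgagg

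AtsnoR13-2 had the lowest p of all these genes and gave the fragment with the lowest limma p, though neither passed. Its gene sum was 655, 394 and 284 in WT and 87.8, 139 and 197 in rdr1, without overlap (log2 fold change -1.64, SE 0.51, limma adjusted p = 0.637). The groups did not overlap for 8 genes, all lower in rdr1, where 5.01% of all genes were lower without overlap and 0.59% higher. Some of the 8, such as AT2G17295 and AT3G47348, rest on a single fragment that reached the value needed for listing only in WT. The part of this entry rule in the gene count was not tested. The 29-nt 5′ fragment of AtsnoR13-2 had 252, 133 and 82.0 in WT and 3.76, 54.8 and 71.5 in rdr1 (log2 fold change -2.40, SE 0.71, limma adjusted p = 0.227). Without rdr1 replicate 1, the lowest library, its log2 fold change was -1.15. A 28-nt form that starts 1 base later, just outside the limit for a 5′ fragment, had 316, 134 and 77.9 in WT and 27.6, 42.8 and 70.3 in rdr1.

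The ends of the AtsnoR13 pair varied separately. Its 3′ fragments of 20 to 22 nt, which AtsnoR13-1 and AtsnoR13-2 share, summed to 18.9, 34.7 and 156 in WT and 100.4, 68.5 and 44.8 in rdr1, with WT replicate 3 the highest. With all 4 of its 5′ forms counted (starts within 5 nt of the end, a limit chosen after the values had been seen), the ratio of 3′ to 5′ fragments of AtsnoR13-2 was 0.0293, 0.0922 and 0.758 in WT and 2.67, 0.656 and 0.257 in rdr1. With the 2-nt limit, which leaves out the later starts, rdr1 replicate 1 had 11.4. The libraries with the lowest 28 to 34 nt shares, WT replicate 3 and rdr1 replicate 1, had the highest ratios. AtsnoR13-1, a copy on chromosome 5, had 107, 113 and 101 in WT and 57.7, 49.7 and 63.6 in rdr1, without overlap (log2 fold change -0.90, SE 0.45, limma adjusted p = 0.637). That gene value includes a divided part of the shared 3′ fragments. The 5′ fragments of AtsnoR13-1 alone had 97.5, 95.2 and 23.3 in WT and 7.53, 15.4 and 41.2 in rdr1, which overlap.

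Short 5′ fragments included the most abundant sequence outside snoR121. It is the 21-nt fragment of AT2G05765, its only one, and had 1763, 1213 and 1060 in WT and 812, 699 and 880 in rdr1. The groups did not overlap, at a log2 fold change of -0.73 (SE 0.44 in the gene fit, limma adjusted p = 0.637). AT2G17295 gave a 21-nt 5′ fragment of similar sequence, at 30.5, 12.5 and 14.5 in WT and 8.78, 5.14 and 9.69 in rdr1, without overlap. That fragment reached the value needed for listing only in WT replicate 1 (30.5), and the part of this entry rule in the lack of overlap was not tested. The 19-nt fragment of snoR133 had 515, 1179 and 804 in WT and 721, 374 and 732 in rdr1, which overlap. snoR114, with a single 25-nt 5′ fragment, had 375, 130 and 111 in WT and 90.3, 73.7 and 88.5 in rdr1, without overlap but close for 2 of the WT libraries.

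AtsnoR4a, in a cluster on chromosome 1 with AtU31a and AtU33a, had fragments of both ends. The 21-nt 5′ fragment had 69.8, 125 and 79.6 in WT and 62.7, 44.6 and 64.2 in rdr1, without overlap. The 30 to 31 nt 3′ fragments summed to 406, 809.9 and 114 in WT and 59.0, 137 and 248 in rdr1, with overlap. The 3′ to 5′ ratio of this gene therefore ran from 0.940 in rdr1 replicate 1 to 6.50 in WT replicate 2. AtsnoR43.1 had 136.7, 116.6 and 239 in WT and 181, 149 and 102 in rdr1 at its 5′ end (17 to 24 nt), and 61.1, 13.3 and 137 in WT and 7.53, 22.3 and 75.1 in rdr1 at its 3′ end (27 nt).

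Long fragments of the 3′ part were also listed for less abundant genes, and there the groups overlapped as they did for snoR121. AtsnoR65, with 144, 195 and 31.3 in WT and 8.78, 29.1 and 63.0 in rdr1, was lowest in rdr1 replicate 1 (log2 fold change -1.87, SE 0.76, limma adjusted p = 0.637). U60.2F, which lies within FIB2, the gene of the rRNA methyltransferase fibrillarin, had 109, 174 and 27.3 in WT and 5.02, 34.3 and 77.6 in rdr1. AtU31a had 116, 138 and 12.1 in WT and 11.3, 17.1 and 58.2 in rdr1. In these 3 genes WT replicate 3 lay below rdr1 replicate 3. snoR122 (208, 326 and 47.4 in WT, 22.6, 72.0 and 125 in rdr1) and AT2G35382 (80.0, 213 and 35.4 in WT, 26.3, 66.8 and 102 in rdr1) had the same overlap.

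AtsnoR19-2, whose fragments of 20 to 30 nt stop at several bases past the D box, had a different profile among the WT libraries. Its gene sum was 425, 199 and 358 in WT and 41.4, 114 and 405 in rdr1, with WT replicate 2 the lowest WT library and rdr1 replicate 3 near the highest (log2 fold change -1.32, SE 0.70, limma adjusted p = 0.637). Each of its fragments matched 2 genomic places, of which 1 is this gene. The gene sum therefore holds a divided part of their value, and their place of origin is not known. The rest of the named genes had lower values that overlapped: snoR136 ranged from 23.3 to 166 in WT and from 37.7 to 105 in rdr1, and AtsnoR8a from 16.0 to 73.9 and from 20.6 to 92.8. AT3G24612 and snoR159 also overlapped. snoR144, an H/ACA gene by its end, had 68.4, 32.9 and 58.7 in WT and 1.25, 15.4 and 41.2 in rdr1, which overlap (log2 fold change -2.16, SE 0.85, limma adjusted p = 0.637).

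**Figure D5:**
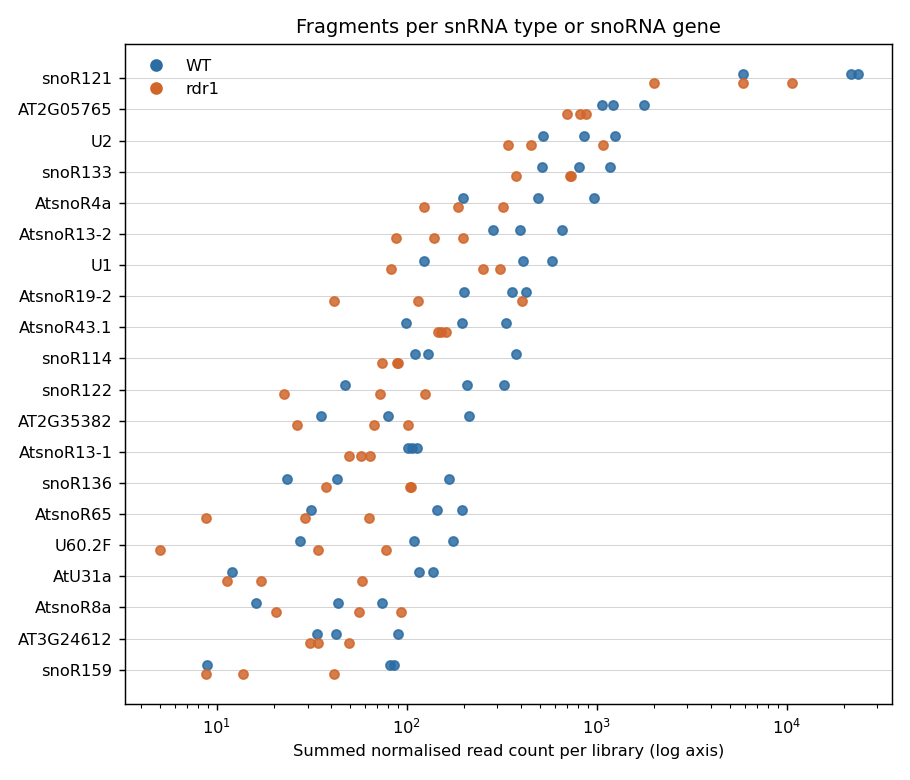
Summed normalised read count per library (log axis) for the 20 snRNA types and snoRNA genes of highest mean; blue points are the 3 WT libraries and orange points the 3 rdr1 libraries. The groups are apart for AT2G05765, AtsnoR13-2, snoR114 and AtsnoR13-1 and overlap for the other 16, snoR121 included.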

How the data were processed

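Small RNA libraries of leaf RNA were made with HD adapters and sequenced on an Illumina platform (labels' protocols). The submitters' processing notes name the build TAIR10. The deposited values are a normalised signal (read count per distinct sequence), scaled by the authors; the sources used here name no aligner, trimming or filter. Values were whole multiples of 1 read (100% within 0.01 read, at 8000000 divided by a library total). Sequences were matched exactly to TAIR10.1. limma 3.58.1 (R 4.3.3, trend, two-sided) was fitted to log2(value + 1) of all features with a mean of at least 5, with Benjamini-Hochberg adjustment; this scale understates changes of low values. Gene values divide a sequence equally between its genomic places. edgeR 4.0.16 (67 of 18043 sequences called) and DESeq2 1.42.0 (142 called) used the recovered reads. Sums were compared by exact permutation. The 20 types or genes of highest mean of 50 are named, with their leading fragment and the 10 smallest p-values. Box classes come from motifs, since the annotation gives few. Other genes or fragments named were chosen after their values were seen. Members and lists were chosen with earlier results of these data known. The limma fit was tried on simulated reads that lack the length differences between these libraries, so the trial does not show its performance here. Replicates of a group differed by more than sampling noise (chi-square over degrees of freedom 7.57 to 45.7).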

Additional observations from a re-analysis of the deposited data

How the results depend on the processing

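With array weights limma called 30 of 117 fragments and 8 of 59 genes (1225 of 18043 sequences and 58 of 1017 genes overall), and DESeq2 called 1 fragment and 0 genes; all other settings, edgeR and those without each library included, called 0 of each. Summed log2 differences stayed below 0 without each library in turn: -1.68 to -0.86 for all fragments, -1.18 to -0.34 for snRNA and -1.74 to -0.88 for snoRNA. The percentage-point difference ranged from -0.31 to 11.9 for the 5′ share, from -17.5 to -1.41 for the 3′ share and from -21.2 to -1.23 for the 28 to 34 nt share. Median of ratios scaling moved the median log2 fold change of all sequences from 0.47 to 0.03 and of all genes from 0.18 to -0.28; that of the fragments moved from -1.06 to -1.51 and that of their genes from -0.90 to -1.32.

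Same-numbered replicates did not deviate together (r = -0.715, -0.301 and -0.529), so the number was not treated as a pairing. Deviations from means of 3 libraries cannot exclude a smaller shared effect of the number. With the replicate block 0 of 117 fragments and 0 of 59 genes were called (7 of 18043 sequences against 39 without it). The sum of all fragments then had an exact permutation p of 0.5, where 0.25 is the smallest possible.

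Over 46 named features, 836 of 889 alternative values kept direction and call, 16 passed the threshold and 37 reversed. No reversed feature was called in the main fit, and the cause was not tested. The snoR136 fragment passed the threshold in its reversed direction under array weights. Without single libraries the log2 fold change ran from -0.13 to 1.46 for the 22-nt 3′ fragment of the AtsnoR13 pair, from -0.50 to 0.43 for the 18-nt fragment of AtsnoR8a, from -0.84 to 0.22 for the U1.7 fragment, from -0.64 to 0.95 for the 19-nt fragment of snoR136 and from -0.20 to 0.56 for the 23-nt fragment of AtsnoR43.1. It kept its sign but moved by over 1.5 times for others, from -2.17 to -0.86 for snoR121 and from -3.11 to -1.15 for the 29-nt 5′ fragment of AtsnoR13-2. For genes that reversed it ran from -0.74 to 0.13 for AtsnoR43.1, from -1.19 to 0.085 for AT2G35382 and its fragment, from -0.18 to 1.22 for snoR136 and from -0.25 to 0.93 for AtsnoR8a. Under array weights it was -0.043 for the AtsnoR13 3′ fragment, 0.56 for the U1.7 fragment, -1.99 for the snoR136 fragment, 0.36 for AtsnoR43.1, -0.78 for AtsnoR8a and 0.35 for snoR159. Under median of ratios scaling it was -0.27 for the snoR136 fragment, -0.34 for the AtsnoR43.1 fragment, -0.031 for snoR136 and -0.11 for AtsnoR8a. Scaling to a common total gave 0.032 for the AtsnoR8a fragment, and quantile normalisation -0.37 for that of snoR136. edgeR gave -0.010 for the snoR136 fragment; edgeR with TMM gave -0.29, -0.26 and -0.43 and DESeq2 -0.34, -0.32 and -0.57 for the AtsnoR13, snoR136 and AtsnoR43.1 fragments. At these depths, 10 to 35 WT reads lie behind the U6 fragment.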

Other observations

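Other structural RNAs were looked for in the same way. The 7SL RNA of the signal recognition particle (AT4G02970) had 0 listed sequences, and RNase P and RNase MRP RNA genes were not found by name in the annotation used. The shared 3′ end of the U3 fragments held for lengths of 17 to 29 nt.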
